A study of Mus musculus with 7 samples.

Results

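DNA replication and S-phase genes were followed in the nucleus pulposus, the soft centre of the disc between the vertebrae, of mice with and without the lactate exporter MCT4. The 55 genes were taken by name: the replication machinery, the enzymes that supply deoxynucleotides, E2F factors and E cyclins, and factors of fork repair and chromatin assembly. Of these, 54 were among the 19505 genes named on the array, each through 1 feature, and Mcm7 was not analysed here. The MCT4KO group held 3 mice aged 14 months that lacked MCT4 in every tissue, and the WT group held 4 mice aged 13 months, so the effects of genotype and of age cannot be told apart. Per the labels, heterozygous parents gave both genotypes as littermates after 10 generations of backcrossing to C57Bl/6N. The design text nevertheless names the WT strain C57Bl/6 and the MCT4KO strain C57Bl/6N, while the sample characteristics give C57BL/6 for both groups. Tissue from the lumbar and caudal discs of each animal was pooled into 1 sample and hybridised to 1 Affymetrix whole-transcript array, and the sources used here do not give the animals' sex. All levels below are the deposited log2 expression values, changes are MCT4KO minus WT on that scale, and levels of different probes are compared only as differences within an animal.

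A cell copies its DNA once per division. Origins are licensed when the origin recognition complex, Cdc6 and Cdt1 load the ring of MCM proteins. The kinases of S phase then turn that ring into an active helicase with Cdc45 and the GINS proteins, and primase, polymerases, the PCNA clamp and ligase build the new strands. E2F factors switch many of these genes on as a cell commits to S phase, while the atypical members E2f7 and E2f8 repress them later in the cycle. Few cells of the adult disc are known to divide.

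Promoters of 5 members are shown. The first 3 belong to the members with the lowest changes, and the other 2 hold letters of the E2F motif. All 5 come from RefSeq on build GRCm38.p6. They run from 250 bases before to 50 bases after the annotated start, 300 bases each. Rrm2, E2f8 and Prim1 had the lowest changes of all members. Their promoters lie at chr12:24708004-24708303 (+), chr7:48881547-48881846 (-) and chr10:128014965-128015264 (+). The promoters of Mcm5 and Cdc6, at chr8:75109259-75109558 (+) and chr11:98907901-98908200 (+), were picked after the values were seen. Capitals mark the letters of the motifs searched on both strands: E2F (TTTCCCGC and TTTGGCGC), CHR (TTTGAA) and CCAAT.
Rrm2: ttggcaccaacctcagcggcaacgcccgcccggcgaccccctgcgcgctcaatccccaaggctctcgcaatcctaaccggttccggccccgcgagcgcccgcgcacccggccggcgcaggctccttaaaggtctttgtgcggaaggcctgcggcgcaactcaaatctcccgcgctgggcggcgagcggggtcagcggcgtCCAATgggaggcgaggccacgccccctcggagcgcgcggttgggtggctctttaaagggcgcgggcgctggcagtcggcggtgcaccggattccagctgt
E2f8: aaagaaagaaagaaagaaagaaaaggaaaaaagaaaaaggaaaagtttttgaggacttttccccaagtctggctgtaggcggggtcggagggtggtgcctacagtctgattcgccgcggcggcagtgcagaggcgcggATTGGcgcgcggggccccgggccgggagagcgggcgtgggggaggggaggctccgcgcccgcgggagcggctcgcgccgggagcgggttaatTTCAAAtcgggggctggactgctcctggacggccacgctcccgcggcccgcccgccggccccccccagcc
Prim1: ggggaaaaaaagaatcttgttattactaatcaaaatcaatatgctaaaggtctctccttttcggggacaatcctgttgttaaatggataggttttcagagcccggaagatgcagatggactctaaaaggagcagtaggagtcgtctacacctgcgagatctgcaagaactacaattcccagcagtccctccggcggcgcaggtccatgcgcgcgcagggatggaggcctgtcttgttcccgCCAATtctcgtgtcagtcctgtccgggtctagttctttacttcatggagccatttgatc
Mcm5: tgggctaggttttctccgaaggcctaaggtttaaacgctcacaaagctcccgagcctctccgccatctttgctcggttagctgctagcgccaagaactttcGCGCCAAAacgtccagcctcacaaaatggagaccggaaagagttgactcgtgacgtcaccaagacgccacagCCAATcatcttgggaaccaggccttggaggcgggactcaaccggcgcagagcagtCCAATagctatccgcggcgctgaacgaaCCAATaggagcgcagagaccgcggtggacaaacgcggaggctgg
Cdc6: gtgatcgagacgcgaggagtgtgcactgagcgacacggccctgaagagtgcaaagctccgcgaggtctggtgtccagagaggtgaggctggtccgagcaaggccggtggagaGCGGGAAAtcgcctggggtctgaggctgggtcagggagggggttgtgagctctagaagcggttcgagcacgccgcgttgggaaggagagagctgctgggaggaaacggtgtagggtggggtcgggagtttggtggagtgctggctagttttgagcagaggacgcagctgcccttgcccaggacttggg
With the annotated start as position 0, the Rrm2 promoter held CCAAT at position -50 and the Prim1 promoter CCAAT at position -9. The E2f8 promoter held the CHR letters, read on the other strand, at -20 and the CCAAT letters, also on the other strand, at -112. None of these 3 promoters held the E2F letters in this window. Mcm5 carried GCGCCAAA at -149 with 3 CCAAT matches, and Cdc6 carried GCGGGAAA at -138. Promoters of 43 members were in the table, 48 promoters in all, and 11 of the 54 measured members had none there. The E2F letters stood in 12 of the 48 member promoters (25%) and in 1.56% of all 32851 promoters of the table. CCAAT stood in 29 member promoters (60.4%) against 37.4% of all, and CHR in 6 (12.5%) against 17.9%. The 12 members with E2F letters had a median log2 change of -0.14, with 9 below 0, and the 31 members without them had a median of -0.06, with 22 below 0. Among the 12, Cdc6, Pola1, Pold1 and Rfc3 did not exceed the negative controls in any array, nor did E2f2, the lowest at -0.65, in MCT4KO. Among the 31, Brca1, Clspn, E2f1, Orc1, Rad51ap1, Tk1 and Ung did not exceed them in any array. The difference between these medians was not tested. A match is a description of the sequence and names no binding site.

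The arrays carried the genotype they were labelled with. Slc16a3, which encodes MCT4, read 5.02, 4.98 and 4.47 in MCT4KO 1 to 3 and 13.55, 13.35, 13.61 and 13.40 in WT 1 to 4, a log2 change of -8.65 ± 0.165 (SE) that passed with a limma adjusted p of 6.7e-09 and with the lowest exact permutation p that the 35 ways of splitting the animals can give, 0.0286. The MCT4KO values lay below the negative controls of the array, whose medians ran from 5.91 to 6.08, so the decrease was at least 179.9-fold. Of 12 nucleus pulposus markers 11 were measured, none was at background in either group, and their mean was 13.81 to 14.04 in MCT4KO animals and 13.52 to 13.83 in WT animals. Markers of neutrophils and their marrow precursors set WT 1 and WT 2 apart from the other animals, with list means of 7.09 and 8.90. The mean of the same 15 markers was 5.62 and 5.88 in WT 3 and WT 4, and 5.55, 5.09 and 5.02 in MCT4KO 1 to 3. B and T cell markers were at background in both groups for 9 of 10 genes and endothelial markers for 6 of 7. Other lists also varied between animals. End plate and hyaline cartilage markers had means of 8.67, 7.47 and 6.55 in MCT4KO 1 to 3, and 7.31 to 7.83 in WT animals. Muscle markers had means of 5.81 to 6.36 in MCT4KO animals and 5.72 to 6.49 in WT animals.

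Of the 54 replication genes, 2 were lower in MCT4KO and none higher at a limma adjusted p under 0.05. They were Rrm2, the small subunit of ribonucleotide reductase, and E2f8, an E2F repressor. That is 3.7% of the members, where 0.59% of all genes were called (0.472% lower and 0.118% higher). Before adjustment, p was under 0.05 for 8 members (14.8%) with a negative change, against 6.9% of all genes, and for 1 with a positive change (Mcm10; 1.85%), against 5.76%. In 9 members (16.7%) every MCT4KO value lay below every WT value, as for 6.37% of all genes, and in none did every MCT4KO value lie above, as for 5.66% of all genes. Besides Rrm2 and E2f8, the first count holds Mcm2, Mcm4, Rfc2, Prim1, Pola1 and Lig1, and the second Cdt1, Rfc1, Rpa3, Prim1, Pole, Lig1 and E2f2. A bulk sample cannot tell fewer S-phase cells apart from less of these transcripts per cell.

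The shift of the list was small beside the fall of its 2 called members. The median log2 change was -0.11 over 54 members (interquartile range -0.33 to 0.01; lowest -1.54, highest 0.44) and 0.02 over all genes. Below 0 were 39 of the 54 (72.2%), and 47% of all genes. The mean over the members was 6.99, 7.02 and 6.99 in MCT4KO 1 to 3, and 7.19, 7.27, 7.16 and 7.10 in WT 1 to 4. Every MCT4KO mean thus lay below every WT mean, the nearest being MCT4KO 2 and WT 4. With Rrm2 and E2f8 left out the median was -0.10. The means then still did not overlap, but MCT4KO 2 and WT 4 lay closer, at 7.049 and 7.069. Much of the gap between the nearest means thus came from the 2 called genes. The plot of every member by animal shows that the shift is spread over many genes and that few separate the groups.

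**Figure D1:**
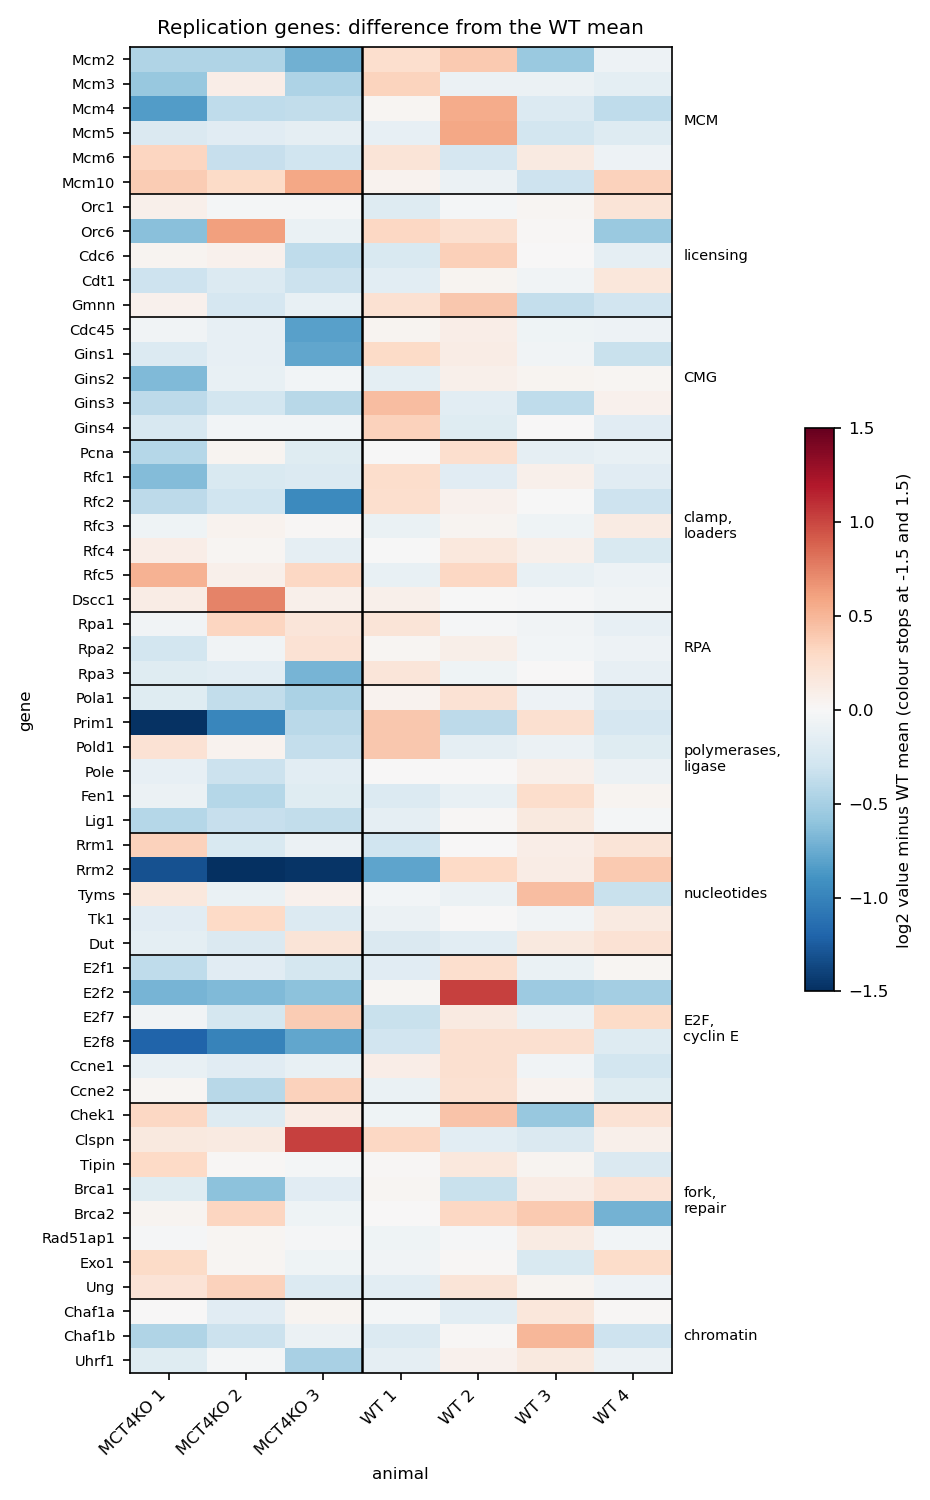
Each cell gives the log2 value of 1 replication gene in 1 animal minus the mean of that gene over the 4 WT animals (blue lower, red higher; the colour stops at -1.5 and 1.5), with MCT4KO 1 to 3 left of the black line and WT 1 to 4 right of it, and genes grouped by role. Rrm2 and E2f8 are blue in all 3 MCT4KO animals, and E2f2 is dark red in WT 2 alone.

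Background limited what could be read. Among the 54 genes, 16 sat at background in both groups, meaning that each array read at or below its own control median, and 2 more (E2f2 and Chaf1b) in MCT4KO alone. The 35 members whose mean over the arrays exceeded the control median had a median change of -0.13, with 27 below 0, and the 19 others had a median of -0.03, with 12 below 0. All 10782 genes of the array that passed the same cut had a median change of -0.049. With every value under the control median raised to it, the median over the 54 members was -0.023, and over all genes it was -0.0079. The latter is only the difference between the mean control medians of the groups, which any gene at background in every array then takes. Single animals also moved the summary: the median was -0.20 without WT 4, and the count of members lower at an unadjusted p was 5 without WT 1 and 4 without MCT4KO 3. The count without overlap was 14 without WT 4 and 16 without MCT4KO 2, but leaving out an animal can only keep or raise that count. Its share over all genes in these fits is not given here.

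Among the genes that supply deoxynucleotides, Rrm2 fell and its partner Rrm1 did not pass the test. Ribonucleotide reductase turns ribonucleotides into deoxynucleotides, and Rrm2 is the subunit whose level follows S phase. Rrm2 read 7.24, 6.71 and 7.07 in MCT4KO 1 to 3, and 7.75, 8.84, 8.66 and 8.94 in WT 1 to 4. All 3 MCT4KO animals lay below all 4 WT animals, and WT 1 was the WT animal nearest to them. The means were 7.01 ± 0.271 in MCT4KO (SD, n = 3) and 8.55 ± 0.543 in WT (SD, n = 4), a change of -1.54 ± 0.275 (SE; 95% interval -2.16 to -0.93), or 2.91-fold lower in MCT4KO (adjusted p = 0.048; exact permutation p = 0.0571, where 0.0286 is the smallest possible). The call did not hold when WT 2, WT 3, WT 4 or any 1 MCT4KO animal was left out, with changes of -1.39 to -1.66 and adjusted p of 0.116 to 0.130. It held without WT 1 (-1.81, adjusted p = 0.0083) and without both WT 1 and WT 2 (-1.79, adjusted p = 0.044). The permutation test was run on Rrm2 because the fit on the same values had called it, so it is no separate support.

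Rrm1, the large subunit, read 12.17, 11.60 and 11.73 in MCT4KO animals and 11.52, 11.83, 11.92 and 12.02 in WT animals. The groups overlapped, with MCT4KO 1 highest and WT 1 lowest of all, and the change was 0.01 ± 0.179 (95% interval -0.39 to 0.41). Within each animal, Rrm2 minus Rrm1 was -4.93, -4.89 and -4.66 in MCT4KO and -3.77, -2.99, -3.26 and -3.08 in WT. The groups did not overlap and their means differed by -1.55, a description that carries no test, since the pair was chosen after the values were seen. Tyms, thymidylate synthase, had a change of 0.04 ± 0.188 and Tk1, cytosolic thymidine kinase, one of -0.02 ± 0.156 with every array at background. Dut, the dUTPase that keeps uracil out of DNA, had the second smallest p of the group and read 6.19, 6.13 and 6.53 in MCT4KO against 6.13, 6.19, 6.50 and 6.56 in WT. These values overlapped throughout (change -0.06 ± 0.166).

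Among the E2F factors and E cyclins, E2f8 fell and E2f1, E2f2, E2f7, Ccne1 and Ccne2 did not pass the test. E2f8 read 5.61, 5.82 and 6.04 in MCT4KO 1 to 3, and 6.53, 7.06, 7.05 and 6.63 in WT 1 to 4. Every MCT4KO value lay below every WT value, and 2 of the 3 MCT4KO arrays read at or below their control median. The means were 5.82 ± 0.211 in MCT4KO (SD, n = 3) and 6.82 ± 0.276 in WT (SD, n = 4), a change of -0.99 ± 0.18 (95% interval -1.40 to -0.59; adjusted p = 0.049; exact permutation p = 0.0286). The call did not hold in any of the 7 fits that left out 1 animal, where the change was -0.89 to -1.10 and the adjusted p 0.056 to 0.159. With values under the control median raised to it, the change was -0.82 (adjusted p = 0.104). The permutation test was run on E2f8 because the fit on the same values had called it, so it is no separate support.

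E2f7, the other atypical E2F, read 5.90, 5.69 and 6.34 in MCT4KO and 5.62, 6.09, 5.87 and 6.24 in WT, a change of 0.03 ± 0.199 near the control medians. These groups overlapped. E2f2, an activator of S-phase genes, read 4.92, 4.96 and 5.002 in MCT4KO, all at background, and 5.64, 6.64, 5.07 and 5.11 in WT. Only WT 2 read above its control median, the change was -0.65 ± 0.331 (adjusted p = 0.45), and it was -0.31 without WT 2 and -0.17 with values under the control median raised to it. E2f1, a further activator, was at background in every array (change -0.27), and the E cyclins, which drive Cdk2 at the start of S phase, had changes of -0.13 ± 0.149 (Ccne1) and -0.02 ± 0.191 (Ccne2).

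**Figure D2:**
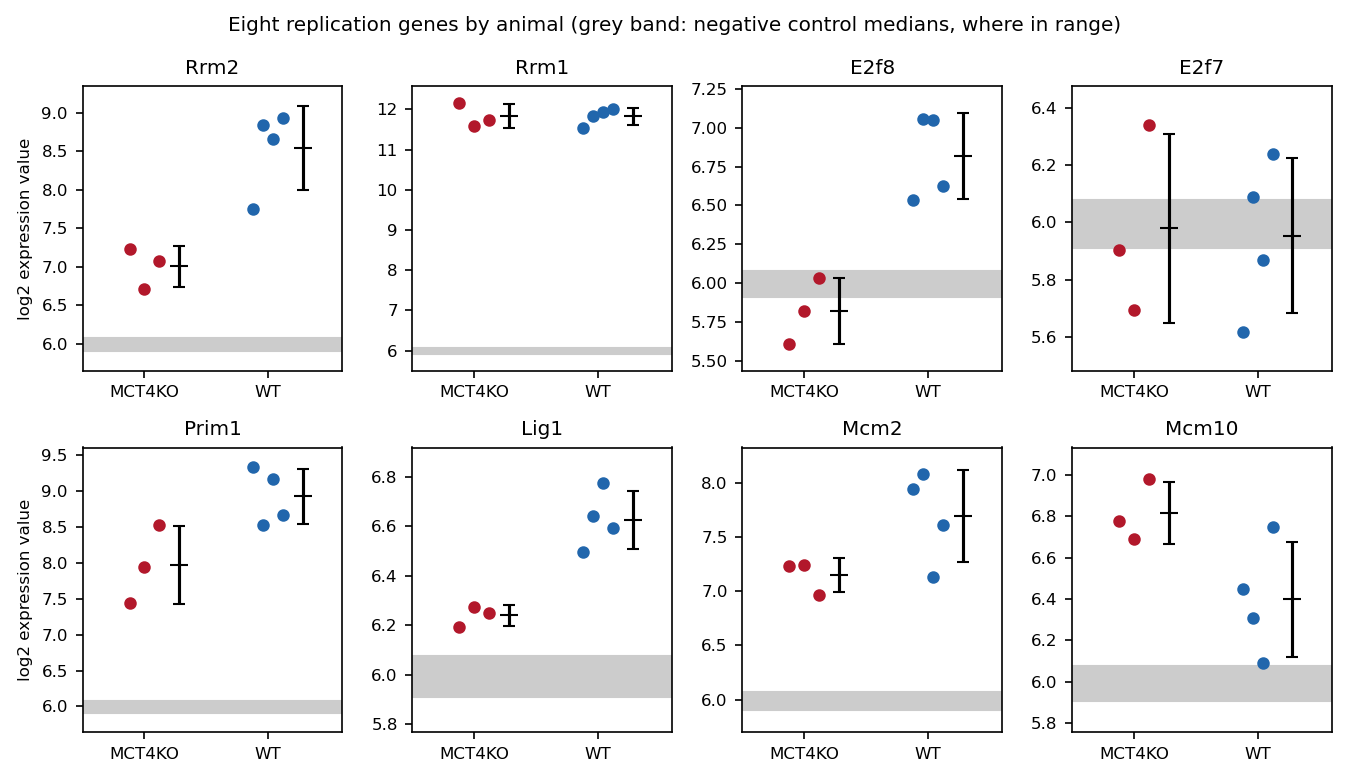
Points give the deposited log2 value of each animal (MCT4KO, n = 3, left; WT, n = 4, right), the bars give mean ± SD, and the grey band spans the control medians of the 7 arrays; each panel has its own axis, which does not start at 0. Rrm2, E2f8, Prim1 and Lig1 separate the groups, Rrm1 and E2f7 do not, and Mcm2 and Mcm10 overlap by 1 animal or more.

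Origin licensing genes did not pass the test, with adjusted p of 0.431 to 0.986. Cdt1, the loader of the MCM ring, read 7.43, 7.53 and 7.41 in MCT4KO and 7.57, 7.77, 7.67 and 7.90 in WT. Its groups did not overlap, and the change was -0.27 ± 0.131 (adjusted p = 0.431). Cdc6, the ATPase that recruits the ring with the origin recognition complex, was at background in every array, at 5.12, 5.14 and 4.70 in MCT4KO and 4.85, 5.43, 5.09 and 4.95 in WT. Of the other members, Orc1 was at background in all arrays, Orc6 had a change of -0.04 ± 0.297 and Gmnn, which encodes the Cdt1 inhibitor geminin, one of -0.10 ± 0.205.

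In the replicative helicase, 5 of 6 measured MCM genes had changes below 0 and Mcm10 lay above 0, with none past the adjusted threshold (median -0.24; adjusted p 0.351 to 0.852). Mcm2, a subunit of the ring, read 7.23, 7.24 and 6.97 in MCT4KO and 7.94, 8.08, 7.13 and 7.61 in WT. WT 3 lay within the MCT4KO values and the other WT animals above them, with a change of -0.54 ± 0.22 (unadjusted p = 0.034). Mcm4, another subunit, had the next lowest change, -0.53 ± 0.229 (95% interval -1.04 to -0.02), and Mcm3, Mcm5 and Mcm6 had changes of -0.31, -0.18 and -0.11. Mcm10, which is not part of the ring and joins the helicase as it is activated, read 6.78, 6.69 and 6.98 in MCT4KO and 6.45, 6.31, 6.09 and 6.75 in WT. The change was 0.42 ± 0.172 (unadjusted p = 0.037, adjusted p = 0.361), and WT 4 lay between the lowest and the next MCT4KO value.

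Cdc45 and the 4 GINS genes, whose products bind the MCM ring to form the active helicase, all had changes below 0 (5 of 5), and none passed the test (adjusted p 0.469 to 0.824). The median was -0.33, or -0.10 with values under the control median raised to it, since Gins1 and Gins2 were at background in every array. Gins3 read 7.91, 8.02 and 7.87 in MCT4KO and 8.76, 8.13, 7.92 and 8.36 in WT. WT 1 was highest and WT 3 lay among the MCT4KO animals, with a change of -0.36 ± 0.193, or -0.20 without WT 1. Gins1 had a similar fitted change, -0.37 ± 0.203 (-0.16 without MCT4KO 3), but was at background in every array, at 4.02, 4.09 and 3.44 in MCT4KO and 4.50, 4.33, 4.16 and 3.88 in WT. In Cdc45 the change of -0.33 ± 0.19 came with 1 low animal, MCT4KO 3 at 7.21, against 7.98 and 7.91 in MCT4KO 1 and 2 and 7.95 to 8.12 in WT. Gins2 was at background in all arrays (-0.27), and Gins4 had a change of -0.10 ± 0.16.

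**Figure D3:**
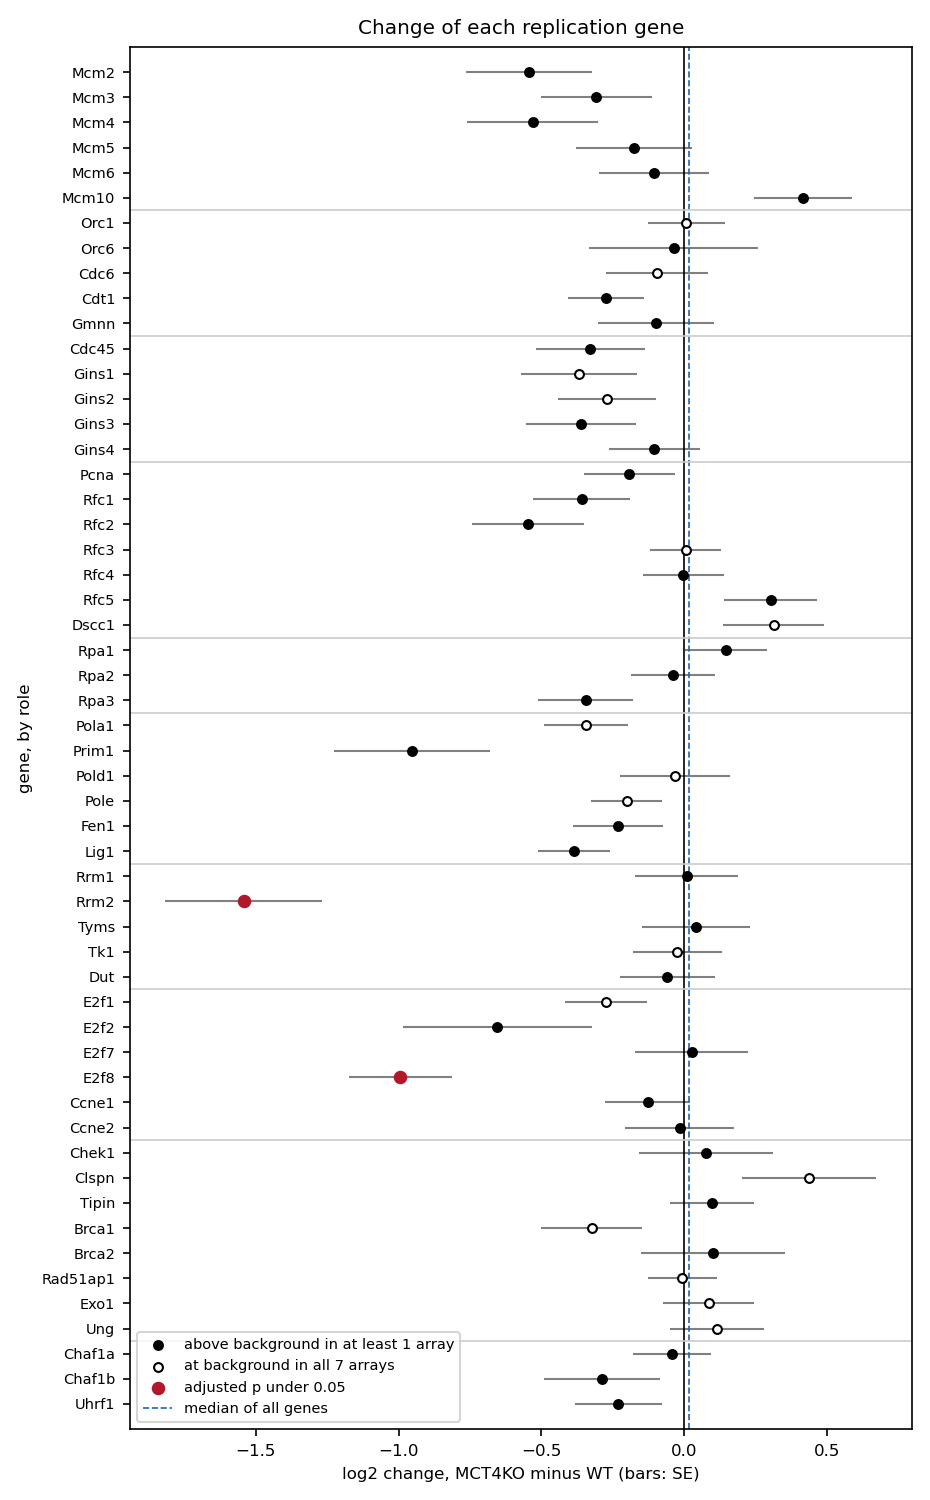
The log2 change (MCT4KO minus WT; bars are the standard error of the limma fit) is drawn for each of the 54 measured members by role, from the MCM genes at the top to the chromatin genes at the bottom; open circles mark members at background in all 7 arrays, red circles those with an adjusted p under 0.05, and the dashed line the median of all genes. Most points lie left of 0, and Rrm2 (-1.54) and E2f8 (-0.99) are the 2 red ones.

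The sliding clamp and its loaders were split about 0, with 4 members below it and 3 above (median near 0; adjusted p 0.300 to 0.995). Rfc2, a subunit of the clamp loader, read 6.45, 6.55 and 5.89 in MCT4KO and 7.09, 6.91, 6.83 and 6.53 in WT. Overlap came from MCT4KO 2 and WT 4 alone, and the change was -0.55 ± 0.196 (unadjusted p = 0.020, adjusted p = 0.3), or -0.34 without MCT4KO 3. Rfc1, the large subunit of the loader, read 10.55, 10.96 and 10.99 in MCT4KO and 11.45, 11.03, 11.27 and 11.02 in WT. Those groups did not overlap, but MCT4KO 3 and WT 4 differed by little, and the change was -0.36 ± 0.169, or -0.22 without MCT4KO 1. Rfc5 lay on the other side with 0.30 ± 0.163, Rfc4 had a change of -0.0028 ± 0.142, and Rfc3 and Dscc1, which belongs to an alternative loader, were at background in all arrays. Pcna, the clamp itself, read 13.76, 14.22 and 14.00 in MCT4KO and 14.18, 14.44, 14.05 and 14.07 in WT, far above the controls, with overlapping groups and a change of -0.19 ± 0.159 (95% interval -0.55 to 0.16).

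The 3 genes of RPA, the protein that coats single-stranded DNA, did not pass the test either. Rpa3, its smallest subunit, read 7.53, 7.55 and 7.01 in MCT4KO and 7.89, 7.64, 7.71 and 7.58 in WT. The groups did not overlap, with MCT4KO 3 lowest, and the change was -0.34 ± 0.167, or -0.17 without MCT4KO 3. Rpa1, the largest subunit, lay above 0 at 0.15 ± 0.144 (0.061 without MCT4KO 2 and 0.25 without MCT4KO 1), with 10.95, 11.33 and 11.18 in MCT4KO and 11.20, 10.99, 10.96 and 10.88 in WT, and Rpa2 had a change of -0.04 ± 0.147.

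All 6 genes of the polymerases, primase, flap nuclease and ligase had changes below 0, with a median of -0.29, or -0.12 with values under the control median raised to it. Of the 6, Prim1, Lig1 and Pola1 had an unadjusted p under 0.05. None passed after adjustment (adjusted p 0.198 to 0.958). Prim1, the catalytic subunit of the primase that starts each new strand, read 7.45, 7.94 and 8.52 in MCT4KO and 9.33, 8.53, 9.16 and 8.67 in WT. MCT4KO 3 and WT 2 all but met, at 8.52 and 8.53, while the means were 7.97 ± 0.539 (SD, n = 3) in MCT4KO and 8.92 ± 0.386 (SD, n = 4) in WT. The change was -0.95 ± 0.274 (95% interval -1.57 to -0.34; adjusted p = 0.198), and -0.69 to -1.23 when 1 animal was left out. Lig1, the ligase that joins the pieces of the lagging strand, read 6.19, 6.27 and 6.25 in MCT4KO and 6.49, 6.64, 6.77 and 6.59 in WT. The groups did not overlap, and the change was -0.39 ± 0.126 (adjusted p = 0.264). Fen1, which removes flaps before ligation, had a change of -0.23 ± 0.157. The polymerase genes Pola1, Pold1 and Pole were at background in every array, with changes of -0.34, -0.03 and -0.20 that have no readable size.

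Fork checkpoint and repair genes were the 1 role with most changes above 0, 6 of 8 (median 0.09). However, 5 of the 8 were at background in all arrays. With values under the control median raised to it, the median was -0.0079, which is only the difference between the mean control medians. Clspn, which encodes the checkpoint mediator claspin, read 5.10, 5.09 and 5.99 in MCT4KO and 5.26, 4.80, 4.73 and 5.03 in WT. All 7 values lay at or below the controls, MCT4KO 3 was the highest, and the change of 0.44 ± 0.235 was 0.14 without it. Brca1, a factor of recombination repair, had 5.07, 4.64 and 5.09 in MCT4KO and 5.28, 4.92, 5.37 and 5.46 in WT, again at background (change -0.32 ± 0.177, or -0.18 without MCT4KO 2). Of the 3 members above the controls, the checkpoint kinase gene Chek1 had a change of 0.08 ± 0.234, Tipin, of the fork protection complex, one of 0.10 ± 0.146, and Brca2, which loads the recombinase, one of 0.10 ± 0.252. Rad51ap1 and Exo1, both of recombination repair, and Ung, which removes uracil from DNA, were at background in all arrays.

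Chromatin genes were below 0 in 3 of 3, with adjusted p of 0.554 to 0.922. Uhrf1, which keeps DNA methylation through replication, read 6.54, 6.69 and 6.23 in MCT4KO and 6.59, 6.78, 6.86 and 6.63 in WT, a change of -0.23 ± 0.151 with overlap, or -0.10 without MCT4KO 3. Chaf1b, a subunit of the histone chaperone CAF-1, was at background in MCT4KO (5.14, 5.27 and 5.50) and passed its control median in WT 3 alone (5.39, 5.61, 6.09 and 5.28 in WT); its change was -0.29, or -0.12 without WT 3. Chaf1a, the large subunit, had a change of -0.04 ± 0.135.

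The animals differed in how they contributed. MCT4KO 1, 2 and 3 were the lowest of the 7 animals for 14, 7 and 13 of the 54 members, where over all 19505 genes they were the lowest for 3838, 2389 and 2372. MCT4KO 1 was thus the most frequent lowest animal among the MCT4KO animals over all genes too, and the count of MCT4KO 2 was near its share of all genes. WT 2 was the highest for 15 members (against 2496 of all genes) and the lowest for none. Set against the mean of the WT animals, the median difference over the members was -0.14, -0.16 and -0.15 in MCT4KO 1 to 3. Set in the same way against the mean of the other WT animals, it was 0.00, 0.07, 0.00 and -0.11 in WT 1 to 4. WT 4 thus came close to the MCT4KO animals, and no MCT4KO animal stood out on this measure.

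Further replication genes, taken from a list of 54 that are not members, are given beside them. Of these, 50 were measured, and none was called in either direction. Unadjusted p was under 0.05 for 11 with a negative change and for none with a positive one, against 6.9% and 5.76% of all genes. Their median change was -0.17, with 37 below 0, and the list mean was 7.98 to 8.13 in MCT4KO animals and 8.19 to 8.28 in WT animals, without overlap. Ccna2, the cyclin of S phase and G2, read 5.11, 5.38 and 5.21 in MCT4KO, at background, and 5.86, 6.17, 6.14 and 5.63 in WT, a change of -0.71 ± 0.165 (adjusted p = 0.109). WT 1 and WT 4 also read below their control medians, and with values under the control median raised to it the change was -0.087 (adjusted p = 0.921). Rbl1, which encodes the E2F partner p107, read 7.46, 8.01 and 7.19 in MCT4KO and 8.27, 8.33, 8.42 and 8.32 in WT (change -0.78 ± 0.187, adjusted p = 0.121, and -1.01 with adjusted p = 0.042 without MCT4KO 2). Samhd1, which degrades deoxynucleotides, and Dctd, which makes a precursor of thymidylate, had changes of -0.69 ± 0.191 and -0.47 ± 0.132 (adjusted p = 0.18 and 0.183). The groups did not overlap for any of these 4, which were picked by smallest p. Over the whole list, 11 of the 50 were lower without overlap, against 6.37% of all genes.

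Genes of mitosis and the spindle, which act after replication, had a lower median change. Of 28 measured, 17 had a negative change at an unadjusted p under 0.05, against 6.9% of all genes. Only 1 of them passed the adjusted threshold, where 0.472% of all genes were called lower. None was called higher, and 26 were below 0 (median -0.66), against 47% of all genes. At background were 4 of the 28 in both groups and 4 more in MCT4KO alone. With values under the control median raised to it, the median was -0.44. The list mean was 6.03 to 6.27 in MCT4KO animals and 6.57 to 6.94 in WT animals. Mki67, the proliferation antigen Ki-67, was the called gene, at 7.12, 7.03 and 7.09 in MCT4KO and 8.41, 9.38, 8.81 and 8.73 in WT (change -1.75 ± 0.207, adjusted p = 0.015). The change stayed at -1.76 without WT 3 and without MCT4KO 3, at -1.75 with values under the control median raised to it and at -1.79 with the replicate block, but the call did not hold in these 4 fits (adjusted p = 0.051, 0.055, 0.055 and 0.069). Ect2, Kif20a and Kif23, which serve cytokinesis, had changes of -0.75 ± 0.14, -1.09 ± 0.209 and -0.61 ± 0.141 (adjusted p = 0.053, 0.057 and 0.109), with no overlap between groups. They too were picked by smallest p. Over the whole list, 12 of the 28 were lower without overlap, against 6.37% of all genes. No test of the difference between the mitosis list and the replication list was run.

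**Figure D4:**
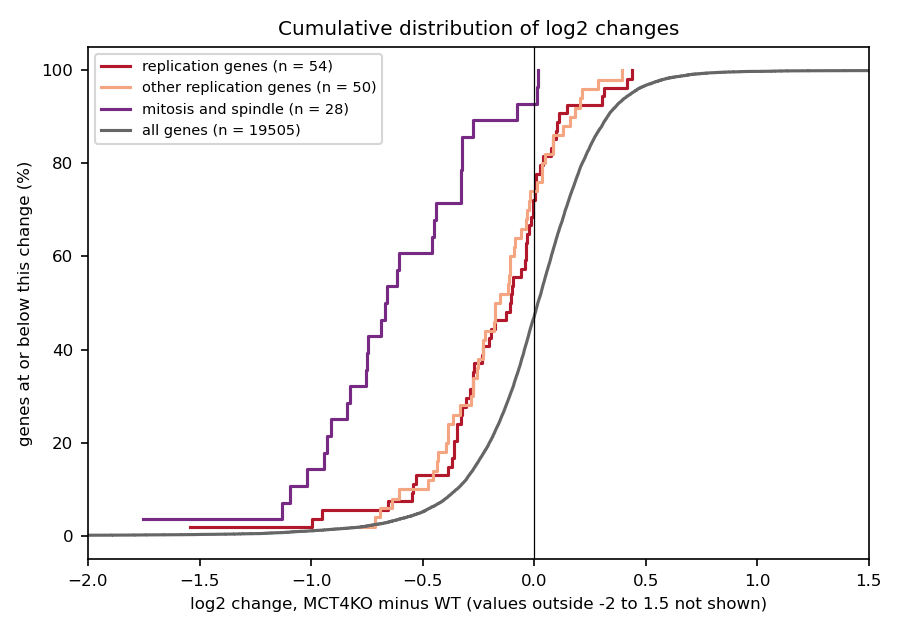
Each step curve gives the percentage of genes at or below a log2 change (MCT4KO minus WT) for the 54 replication genes, the 50 other replication genes, the 28 genes of mitosis and the spindle, and all 19505 genes. At the medians, the replication curves lie left of the curve of all genes (-0.11 and -0.17 against 0.02), and the mitosis curve lies farther left (-0.66).

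Marrow markers moved with the same groups. The 15 neutrophil and marrow markers had list means of 5.02 to 5.55 in MCT4KO animals and 5.62 to 8.90 in WT animals, with 8 at background in MCT4KO alone, 2 in both groups and none called. S100a8, a calprotectin subunit, read 5.56, 4.31 and 5.57 in MCT4KO and 10.41, 13.04, 7.71 and 7.86 in WT. The 5 measured erythroid markers averaged 7.13 to 7.18 in MCT4KO and 7.09 to 7.95 in WT, highest in WT 2. Among the WT animals, WT 2 had the highest mean of the 54 replication genes and of the marrow markers, while WT 3 had the highest mean of the other replication genes (8.28, against 8.24 in WT 2) and of the mitosis list. Without WT 1 and WT 2, the replication median was -0.12, Rrm2 had a change of -1.79 and Mki67 one of -1.69 (adjusted p = 0.018), while E2f8 had -1.02 and lost its call (adjusted p = 0.172). Some other members shrank in that fit: Mcm2 went from -0.54 to -0.22, Gins3 from -0.36 to -0.21 and E2f2 from -0.65 to -0.13. Others did not, as Prim1 stayed at -0.95, Lig1 went from -0.39 to -0.44 and Cdt1 from -0.27 to -0.33. Leaving out WT 1 and WT 2 did not level the marrow markers, as WT 3 and WT 4 had list means of 5.62 and 5.88, above every MCT4KO animal. The part of marrow cells in the replication values was not tested.

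**Figure D5:**
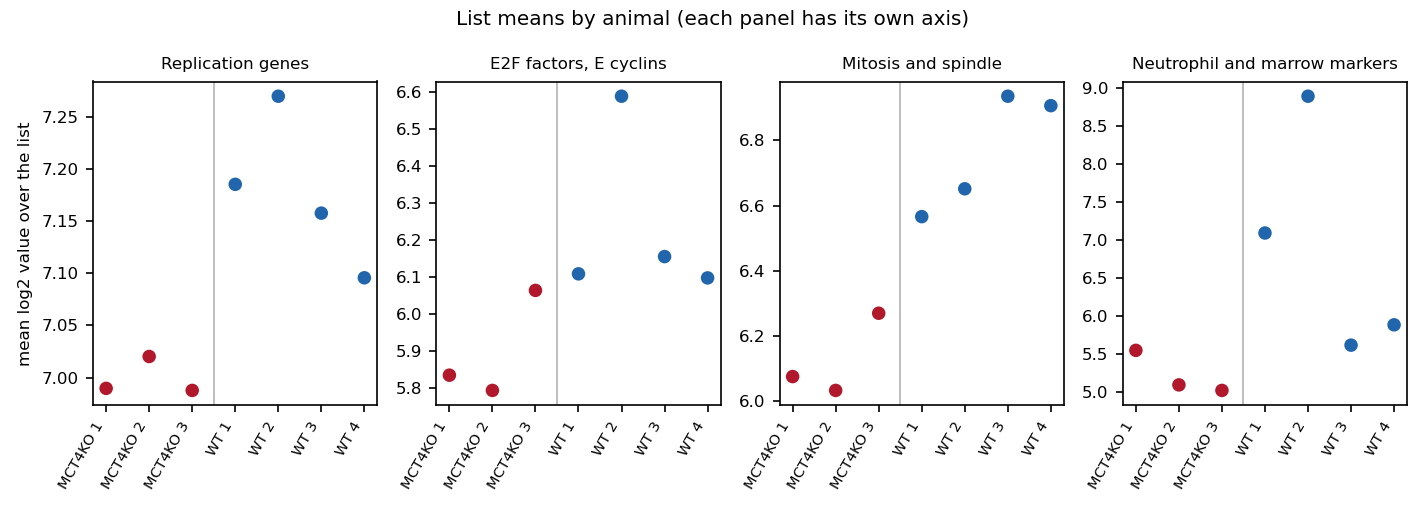
Each point is the mean log2 value of a gene list in 1 animal, with MCT4KO 1 to 3 left of the grey line and WT 1 to 4 right of it; each panel has its own axis, which does not start at 0. WT 2 is highest in the replication, E2F and marrow panels, and WT 3 and WT 4 are highest in the mitosis panel.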

How the data were processed

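RNA of 7 nucleus pulposus samples (3 MCT4KO, 4 WT; 100 ng each) was measured on Affymetrix arrays, 1 per animal. The authors deposited 1 log2 value per feature and array, and the submitters' processing notes name Affymetrix Expression Console 1.4.1. The sources used here do not give the background correction or the normalization. The log2 scale was read from the range of the values, whose top of 19.4 exceeds the log2 of a scanner reading, so folds are on the deposited scale.

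Of 28846 features, 19572 carried 1 gene symbol, 0 carried several and 2634 transcript clusters had none here. Where a gene had several features (55 genes, no member), the one with the highest mean was used, which left 19505 genes. No filter on low values was applied. The 5222 negative control features gave the background, with a median of 6.00. limma 3.58.1 (R 4.3.3) fitted every gene, MCT4KO against WT with no covariate, with Benjamini-Hochberg adjustment over all genes and calls at 0.05. The median standard error was 0.167, which the number of arrays limits. Exact permutation tests ran over the 35 splits of the animals, two-sided. Rrm2 and E2f8 were given this test because the fit on the same values had called them.

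The members, gene lists, tests and alternatives were chosen with earlier results of these data known. Values by animal are given for called members, for the 2 members of smallest p in each role and for members higher at an unadjusted p under 0.05. Those of Rrm1, E2f7, Pcna and Cdc45 were added after their values were seen. In the other lists, called genes and the 4 of smallest p are named, and other genes beside these only to account for the members or, like S100a8, after their values were seen. Promoters follow the same order of p, up to 6, of which 3 are printed.

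Replicate numbers did not pair the animals: deviations from the group means correlated at -0.13, 0.02 and 0.05 for numbers 1 to 3. The comparison of MCT4KO against WT was also run on 20 simulated sets of 19505 genes with 200 changed. There it recovered 5.67%, 79.0% and 99.7% of changes of 0.5, 1 and 2 on the log2 scale. In these sets 6.20% of calls were false. Whether the same shares hold for the real arrays was not tested. Alternatives were quantile normalization, median centring, 2 filters on dim genes, averaged features, raised background values, a trended robust prior, all transcript clusters, a replicate block and left-out animals.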

Additional observations from a re-analysis of the deposited data

Results flagged for a closer look

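The mean of the E2F factors and E cyclins was 6.11, 6.59, 6.15 and 6.10 in WT 1 to 4. WT 2 stood apart from the other WT animals: its gap to the nearest of them was 0.883 of the range of the group, above Dixon's critical value at the 95% level for 4 samples. Of 42 sets of 4 WT values examined in this way, this was the only 1, and chance gives about 1 in 20. For E2f2 the value of WT 2 was 6.64, and those of WT 1, WT 3 and WT 4 were 5.64, 5.07 and 5.11.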

How the results depend on the processing

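Over all genes, 115 calls became 26 with values raised to the control median, 60 with all transcript clusters, 15 to 64 without 1 animal and 16 without WT 1 and WT 2. The 2 members called lower became 1 with median centring, with genes above the median gene, with averaged features and without WT 1 and WT 2, became 0 with quantile normalization, raised values and all transcript clusters, and 0 to 1 without 1 animal. Rrm2 kept its call in 7 of 17 alternatives (adjusted p 0.0083 to 0.162) and E2f8 in 2 of 16 (0.038 to 0.172). With genes above the median gene, which keeps 29 members, 5 were lower at an unadjusted p, 5 did not overlap and 21 were below 0. Without WT 1 and WT 2, 5 were lower at an unadjusted p. Without 1 animal, 4 to 10 were lower at an unadjusted p, 34 to 41 were below 0, 0 to 1 of the other replication genes were called, and the member median was -0.20 to -0.10. In the same fits 10 to 16 did not overlap, a count that leaving out an animal can only keep or raise. Raised values gave a median of -0.023. Without 1 animal, Cdc6 ran from -0.17 to 0.048 and was above 0 without WT 2 (0.023) or MCT4KO 3. Dut ran in the same fits from -0.18 to 0.020 and was above 0 without WT 4 (0.015) or MCT4KO 2. The cause of these sign changes was not tested. Clspn was -0.0079 with raised values. Every array read it at background, so that value is only the difference between the mean control medians. No member was called higher in any of the 17 alternatives.

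The replicate numbers do not pair the animals. With the number as a replicate block, in which WT 4 has no partner and drops out of the contrast, 6 genes and 0 members were called, the member median was -0.20 and Dut was 0.015. Of the 54 members, 16 at background in both groups have no readable size of change.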
